A study of Homo sapiens with 8 samples.

Results

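The P-body RNA of 2 human acute myeloid leukaemia (AML) cell lines, MOLM-13 and HEL, was compared as an abundance, MOLM-13 against HEL, and not as a ratio to the cytosol. The comparison used 4 of the 8 libraries of the study, 2 P-body libraries of each line, and the other 4 are cytosolic RNA of the same lines, drawn on only where named. The labels give no treatment and no engineered allele for any group, both lines were grown in the same supplemented RPMI medium, and total RNA was made into libraries for sequencing. The labels say neither how the P-bodies were purified nor whether the libraries of a line came from separate cultures, and the p-values below thus reflect the spread between libraries, which may be technical. The counts of the lines stand in separate tables, and the line and any batch of preparation or sequencing cannot be told apart. A higher share of a transcript in a P-body library can stand for more of it in P-bodies or for less of other RNA there, and these cannot be told apart in bulk RNA either.

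HEL is an erythroleukaemia line that carries an activating JAK2 mutation and is known for erythroid and megakaryocytic features. MOLM-13 is a monocytic AML line that carries a KMT2A-MLLT3 fusion gene and an internal tandem duplication of FLT3. P-bodies are cytoplasmic granules without a membrane, in which mRNAs that are not being translated collect together with the decapping enzymes, the helicase DDX6, the scaffold LSM14A and other repressors of translation. Which mRNAs they hold depends on what a cell transcribes and on which of its mRNAs leave the polysomes.

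The P-body libraries held 18071473 and 17058567 counts in HEL and 11000536 and 9868469 in MOLM-13. The tables were joined on the 60196 symbols that stand on 1 row in both, and levels are given as CPM, a gene's counts scaled to a common library total. Erythroid markers fixed for the check of cell identity (10 genes) summed to 455 and 473 CPM in HEL and 25.7 and 22.1 CPM in MOLM-13, where EPOR was the only one with at least 10 counts in both libraries. Megakaryocytic markers (8 genes) summed to 709 and 731 CPM in HEL and 3.18 and 2.84 CPM in MOLM-13. Monocytic and granulocytic markers (13 genes) summed to 1712 and 1768 CPM in MOLM-13, where all 13 reached 10 counts in both libraries, and to 110 and 127 CPM in HEL, where LYZ, CST3, CTSS and CD33 did. Of 7 lymphoid markers, CD79A reached 10 counts in both HEL libraries and CD3D and NKG7 did in both of MOLM-13, and the sums were 1.27 and 1.99 CPM against 98.7 and 99.8 CPM. Of 8 fibroblast and epithelial markers, KRT18 alone reached 10 counts in both libraries of a line, in HEL and in MOLM-13.

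The promoters of lineage mRNAs that were abundant in the P-bodies of one line are shown first, since the 5 gene lists below with the largest median differences are of red cell, platelet and myeloid genes. GATA-family factors bind sites built on the letters AGATAA (searched also with a final G as AGATAG, with an initial T as TGATAA, and with both as TGATAG), and PU.1, the myeloid factor encoded by SPI1, binds sites with GAGGAAGT. Each motif was searched on both strands in RefSeq promoter windows (GRCh38.p14, 250 bases before to 50 after the start of a gene), and the 250 bases before the start are printed here 5′ to 3′ on the gene's strand, with motif matches in capitals. HEMGN, FERMT3 and ITGA2B were erythroid or megakaryocytic list members of high CPM in HEL P-bodies that had a GATA match before the start. PRTN3 and LST1 were monocyte or granulocyte members of high CPM in MOLM-13 P-bodies that had a PU.1 match there. These genes were picked from a part of the list members and need not be the highest with a match.
HEMGN (chr9:97944853-97945102, minus strand): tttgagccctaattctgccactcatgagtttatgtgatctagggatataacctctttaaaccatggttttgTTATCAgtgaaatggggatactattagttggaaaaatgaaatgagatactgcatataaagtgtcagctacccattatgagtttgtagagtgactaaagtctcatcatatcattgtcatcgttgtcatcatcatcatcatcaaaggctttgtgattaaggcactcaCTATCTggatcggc
FERMT3 (chr11:64206471-64206720, plus strand): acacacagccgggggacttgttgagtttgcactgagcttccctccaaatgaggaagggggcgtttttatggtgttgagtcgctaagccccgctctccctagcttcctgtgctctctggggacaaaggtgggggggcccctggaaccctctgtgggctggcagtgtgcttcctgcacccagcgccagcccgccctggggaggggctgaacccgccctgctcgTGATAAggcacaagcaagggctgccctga
ITGA2B (chr17:44389650-44389899, minus strand): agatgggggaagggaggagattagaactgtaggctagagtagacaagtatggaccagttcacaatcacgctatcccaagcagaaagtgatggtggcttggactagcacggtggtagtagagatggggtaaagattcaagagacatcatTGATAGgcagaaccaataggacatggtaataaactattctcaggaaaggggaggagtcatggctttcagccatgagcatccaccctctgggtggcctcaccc
PRTN3 (chr19:840749-840998, plus strand): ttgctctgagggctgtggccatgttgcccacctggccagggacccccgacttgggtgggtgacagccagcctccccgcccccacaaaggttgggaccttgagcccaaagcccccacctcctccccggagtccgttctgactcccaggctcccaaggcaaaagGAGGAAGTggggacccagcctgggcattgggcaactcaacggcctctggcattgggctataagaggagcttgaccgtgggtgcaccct
LST1 (chr6:31586027-31586276, plus strand): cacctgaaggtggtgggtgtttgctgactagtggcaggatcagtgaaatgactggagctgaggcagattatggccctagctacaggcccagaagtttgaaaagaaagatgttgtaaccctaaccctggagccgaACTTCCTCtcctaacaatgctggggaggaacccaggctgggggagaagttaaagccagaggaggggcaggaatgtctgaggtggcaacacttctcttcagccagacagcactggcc

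Of the 70 erythroid and megakaryocytic list members at least 2-fold higher in HEL P-bodies, 47 had a promoter window and 25 of these (53.2%) held a GATA match. Of the 70 monocyte and granulocyte members at least 2-fold higher in MOLM-13 P-bodies, 53 had a window and 12 (22.6%) held one. Among all 10161 coding genes tested that had a window the share was 15.3%, and it was 25.5% over all 27305 windows of the table. The PU.1 letters were in 5 of the 53 monocyte and granulocyte windows (9.43%), in 1 of the 47 erythroid and megakaryocytic windows (2.13%), in 2.60% of the coding genes tested and in 2.54% of all windows. These shares describe letters in a window. They show no binding, and no test was made of them. ELANE, MPO, HBG1, HBG2, HBA1 and HBA2 have no window in the table.

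The pool of mRNA in P-bodies was more concentrated in MOLM-13 than in HEL, and so was that in cytosol. In the cytosolic libraries, the genes that together made up 50% of all counts numbered 1259 and 1279 in HEL and 748 and 777 in MOLM-13. In the P-body libraries they numbered 1006 and 1058 in HEL and 642 and 637 in MOLM-13. The 100 most counted genes there took 12.6% and 12.1% of counts in HEL and 19.4% and 19.6% in MOLM-13. At least 10 counts in both libraries were reached by 11632 coding genes in HEL and by 10812 in MOLM-13, of which 9942 did so in both lines. HEL had the deeper libraries, so these numbers are not corrected for depth. Over those 9942 genes the levels of the lines correlated with a Pearson r of 0.76 on the log2 scale and a Spearman rho of 0.77, while replicate libraries of a line correlated with r = 0.99 in HEL and 0.99 in MOLM-13. These are correlations across genes, given as a description.

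To rank genes within a line, counts were divided by the length of the gene's merged exons and scaled to the same sum in every library, which gives a level per length. Mitochondrially encoded mRNAs were ranked apart: MT-CO1, the highest of them in HEL, had a level per length of 4951 there and 3106 in MOLM-13. FTL, the light chain of the iron store ferritin, ranked first of the nuclear-encoded mRNAs in both lines, with a level per length of 4283 in HEL and 13930 in MOLM-13. In CPM it stood at 792 and 849 in HEL and at 2915 and 3094 in MOLM-13, so that no library of one line overlapped the other. The difference was 3.77-fold, a log2 difference of 1.91 ± 0.06 (SE; n = 2 and 2; edgeR quasi-likelihood test, Benjamini-Hochberg adjusted p = 1.38e-10). FTL has many processed pseudogenes, and how shared reads were counted is not stated by the labels.

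In HEL, FTL was followed per length by ACTB, the cytoskeletal actin, by HSP90AB1, a constitutive HSP90 chaperone, by PUM3, an RNA-binding protein of the nucleolus, and by NCL, which encodes nucleolin. PLEK, the platelet kinase C substrate pleckstrin, came next, with 1827 and 1687 CPM in HEL and 351 and 367 CPM in MOLM-13 (4.76-fold, log2 difference -2.25 ± 0.07, adjusted p = 8.96e-11 by edgeR). TOPORS, a ubiquitin and SUMO ligase, had 2237 and 1992 CPM in HEL and 329 and 334 CPM in MOLM-13, a 6.21-fold difference. The highest 15 in HEL also included ATP5F1B, LSM14A, RPS6, GAPDH, H4C3, CCT8 and NOP58.

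In MOLM-13, FTL was followed per length by RPL7, a protein of the large ribosomal subunit, and by ESF1, a nucleolar factor of ribosome biogenesis. RPL7 had 818 and 848 CPM in HEL and 3593 and 3839 CPM in MOLM-13 (4.58-fold, log2 difference 2.20 ± 0.06, adjusted p = 4.74e-11 by edgeR). ESF1 had 412 and 436 CPM in HEL and 3980 and 4012 CPM in MOLM-13, which makes 9.70-fold. TMSB4X, the actin-binding peptide thymosin beta, had 281 and 344 CPM against 1709 and 1796 CPM. The rest of the highest 15 in MOLM-13 were NCL, RPS6, PTMA, RPL19, HSP90AA1, RPL8, HSP90AB1, H4C3, TMSB10, ELF1 and EEF1A1.

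The lines shared 5 of their highest 15 genes and 47 of their highest 100. LSM14A, the P-body scaffold, is an mRNA of high level that did not pass the test. It had 2128 and 2158 CPM in HEL and 2157 and 2169 CPM in MOLM-13, a log2 difference of 0.05 ± 0.05 with adjusted p = 0.37 by edgeR. Under other settings LSM14A did pass. Its log2 difference was 0.69 with the GC and length trend removed (adjusted p = 4.20e-08 by edgeR) and 0.22 with a filter of 5 CPM (adjusted p = 0.00107 by edgeR). IQGAP2, a scaffold of the cytoskeleton (178 and 167 CPM against 170 and 166 CPM), and NIP7, a ribosome biogenesis factor (269 and 265 CPM against 263 and 256 CPM), were among the 4 genes of smallest difference of all coding mRNAs of at least 100 CPM in all 4 libraries. The ranking rests on the length used: with the length of the transcript that has the longest coding sequence, 4 of the 15 genes in HEL and 7 of the 15 in MOLM-13 were again among the highest 15, and FTL stood first in MOLM-13 but the sixth in HEL, behind ACTB, HMGN1, YWHAZ, PTMA and CALM2.

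**Figure D1:**
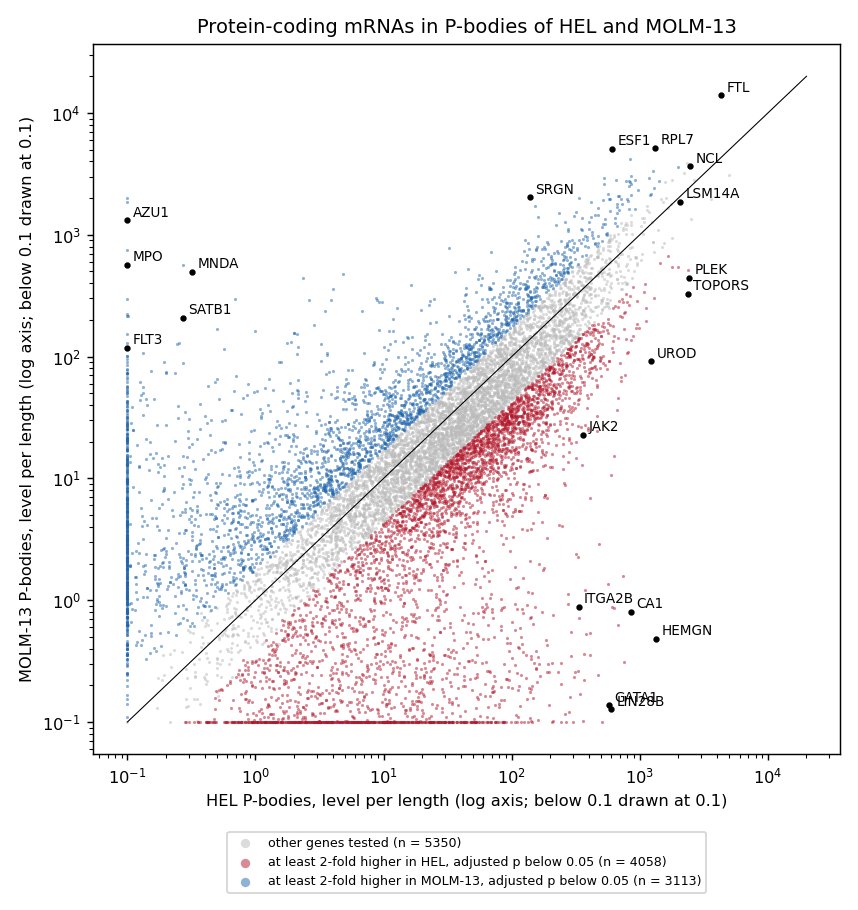
Level per length of each tested protein-coding gene in HEL P-bodies (x) and MOLM-13 P-bodies (y), as the mean of 2 libraries on log axes, with the diagonal as the line of equal levels. FTL lies highest of the nuclear-encoded mRNAs in both lines, UROD, HEMGN and ITGA2B lie far below the diagonal, and AZU1, MPO and SATB1 lie far above it.

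Most genes differed between the P-bodies of the lines. Of 15847 genes tested, 6549 (41.3%) were higher in MOLM-13 and 6699 (42.3%) were higher in HEL at an adjusted p below 0.05 (edgeR), and at least 2-fold differences made up 4769 (30.1%) and 4733 (29.9%). The median log2 difference over all genes was -0.01. The biological coefficient of variation was 0.09 between the HEL libraries and 0.04 between those of MOLM-13, and small differences passed the test. Counts of list members are given for at least 2-fold differences and are to be read against 30.1% and 29.9%.

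Most transcripts of red cell and platelet biology were higher in HEL P-bodies, and many were at or near 0 in MOLM-13. Of 28 tested genes for erythrocyte membrane and blood-group proteins, 25 were at least 2-fold higher in HEL and 1, CA2, in MOLM-13, with a median log2 difference of -6.17. Of 35 megakaryocyte and platelet genes, 30 were at least 2-fold higher in HEL and 2 in MOLM-13 (median -6.58, or -5.98 with genes at 0 counted at their bound). Of 21 globin and haem synthesis genes, 15 were at least 2-fold higher in HEL and 1, HEBP1, in MOLM-13 (median -3.19, or -2.52 with genes at 0 at their bound). The lists held 32, 39 and 24 genes, and 14, 18 and 8 of the tested members had fewer than 10 counts in each library of 1 line. For such genes the filter on low counts favoured a difference. Over all genes 3685 of the 15847 tested had so few counts in a line.

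UROD, an enzyme of haem synthesis, had 791 and 772 CPM in HEL and 66.0 and 64.2 CPM in MOLM-13, which is 11.7-fold (log2 difference -3.55 ± 0.07, adjusted p = 4.12e-12 by edgeR). ALAS2, the erythroid enzyme of the first step of the pathway, had 1850 and 1615 counts in HEL and 1 and 7 in MOLM-13.

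Among the globins, HBA2 (alpha globin) had 1586 and 1637 counts in HEL P-bodies and 0 in both MOLM-13 libraries, at least 319-fold higher against a floor of 3 counts per library. HBG2 (fetal gamma globin) had 507 and 548 counts in HEL and 1 and 0 in MOLM-13, a ratio of 627 with a 95% counting interval of 112 to 24800. HBA2 and HBG2 each have a nearly identical neighbouring copy, HBA1 and HBG1, and the split of reads between copies is uncertain. Neither was near the top of the HEL pool: HBA2 stood at 87.8 and 96.0 CPM.

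CA1, the carbonic anhydrase of red cells, had 760 and 750 CPM in HEL and 1.09 and 0.51 CPM in MOLM-13. HEMGN, a nuclear protein of erythroid progenitors, had 699 and 690 CPM in HEL against 0.36 and 0.20 CPM, a fold of 2280 that rests on 4 and 2 counts in MOLM-13. EPB42, a protein of the red cell membrane skeleton, had 3693 and 3286 counts in HEL and 0 in both MOLM-13 libraries, at least 688-fold higher in HEL. For these 3 genes the lines were separated by a wide gap in every library.

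RHAG, the Rh-associated glycoprotein, differed 588-fold, with 362 and 344 CPM against 0.55 and 0.61 CPM. TFRC, the transferrin receptor that brings iron into cells, differed less, 6.43-fold, with 603 and 549 CPM in HEL and 84.8 and 89.6 CPM in MOLM-13. EPOR, the erythropoietin receptor, was below 2-fold, with 32.9 and 34.6 CPM in HEL and 24.3 and 20.8 CPM in MOLM-13.

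ITGA2B, the alpha chain of the platelet fibrinogen receptor, had 391 and 414 CPM in HEL and 1.00 and 1.42 CPM in MOLM-13 (log2 difference -8.34 ± 0.12, adjusted p = 1.47e-12 by edgeR). GP9, a platelet glycoprotein that binds von Willebrand factor as part of a complex, had 138 and 151 CPM against 0.18 and 0.51 CPM. FERMT3, which activates integrins in blood cells, differed 12.8-fold, with 453 and 452 CPM against 34.3 and 34.5 CPM. ANGPT1, a ligand of the TIE2 receptor, had 9034 and 8325 counts in HEL and 44 in each MOLM-13 library (114-fold). P2RX1, an ATP-gated channel of platelets, went the other way, with 16.3 and 14.7 CPM in HEL and 38.0 and 42.2 CPM in MOLM-13, where it was 2.65-fold higher.

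Of 25 erythroid, megakaryocytic and stem-cell transcription factor genes, 15 were at least 2-fold higher in HEL and 6 in MOLM-13, with a median log2 difference of -1.30. GATA1, the master regulator of both erythroid and megakaryocytic cells, had 3406 and 3208 counts in HEL P-bodies and 0 and 1 in those of MOLM-13. MECOM, a zinc finger regulator of stem cells, had 9898 and 8461 counts in HEL and likewise 0 and 1 in MOLM-13. Both genes were thus far apart between the lines in every library.

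KLF1, an erythroid factor, had 112 and 122 CPM against 1.27 and 0.51 CPM, and NFE2, a factor of platelet formation, had 185 and 189 CPM against 16.5 and 15.7 CPM. GATA2, needed in stem cells and progenitors, had 2022 and 2209 counts in HEL against 119 and 86 in MOLM-13. On the MOLM-13 side MYB, a factor of haematopoietic progenitors, had 508 and 501 CPM against 214 and 209 CPM in HEL (2.45-fold). LMO2, an adaptor in the complex of GATA1 and TAL1, had 69.6 and 77.8 CPM in MOLM-13 and 20.9 and 33.5 CPM in HEL (2.80-fold).

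Most transcripts of monocyte and granulocyte biology were higher in MOLM-13 P-bodies. Of 46 tested genes for monocyte and granulocyte surface and secreted proteins, 36 were at least 2-fold higher in MOLM-13 and 4 in HEL, with a median log2 difference of 4.08, or 3.94 with genes at 0 at their bound. Of 44 genes for granule, oxidase and lysosomal effectors of myeloid cells, 34 were at least 2-fold higher in MOLM-13 and 2, LCN2 and LTF, in HEL (median 3.46, or 3.10 at the bound). Of 32 myeloid transcription factor genes, 20 were at least 2-fold higher in MOLM-13 and 2 in HEL (median 1.65). The lists held 58, 45 and 35 genes, and 21, 18 and 10 of the tested members had fewer than 10 counts in each library of 1 line.

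The 4 mRNAs of highest CPM in MOLM-13 P-bodies with at most 3 counts in each HEL library all encode proteins of azurophil granules. AZU1 (azurocidin) had 6277 and 5703 counts in MOLM-13 and 0 in both HEL libraries, at least 3360-fold higher in MOLM-13. PRTN3 (proteinase 3) had 5646 and 5232 counts and ELANE (neutrophil elastase) 5372 and 5208, with 0 in both HEL libraries for each. MPO (myeloperoxidase) had 5292 and 4919 counts in MOLM-13 and 0 in both HEL libraries, at least 2870-fold higher. In CPM these 4 mRNAs lay between 481 and 578 in the MOLM-13 libraries. AZU1, PRTN3 and ELANE are neighbours on chromosome 19, at 825097 to 832018, 840960 to 848175 and 851014 to 856247 of GRCh38.

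SRGN, the core proteoglycan of secretory granules, was read in both lines, with 602 and 612 CPM in MOLM-13 and 34.0 and 39.8 CPM in HEL (16.9-fold, log2 difference 4.08 ± 0.08, adjusted p = 4.46e-12 by edgeR). LYZ, which encodes lysozyme, had 168 and 167 CPM against 5.76 and 6.80 CPM. CSF3R, the receptor for granulocyte colony-stimulating factor, had 1625 and 1551 counts in MOLM-13 and 6 and 7 in HEL. MNDA, a nuclear antigen of myeloid cells, had 2796 and 2448 counts against 2 and 3 counts in HEL. CD14, the monocyte co-receptor for lipopolysaccharide, was low also in MOLM-13, with 27 and 14 counts, and was at 0 in HEL.

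Some myeloid transcripts were higher in HEL. LCN2 (lipocalin, a protein of neutrophil specific granules) had 493 and 553 counts in HEL and 0 in both MOLM-13 libraries, at least 104-fold higher in HEL. PTPRC, the leukocyte phosphatase CD45, had 365 and 362 CPM in HEL and 164 and 168 CPM in MOLM-13, which is 2.13-fold. CD33, a surface marker of most AML cells, stayed below 2-fold, with 36.2 and 41.8 CPM in HEL and 57.6 and 59.1 CPM in MOLM-13.

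IRF8, a factor of monocytes and dendritic cells, had 767 and 649 counts in MOLM-13 P-bodies and 0 in both HEL libraries, at least 396-fold higher in MOLM-13. CEBPD had 68.3 and 96.5 CPM against 0.94 and 1.05 CPM and CEBPA 13.9 and 13.5 CPM against 0.22 and 0.18 CPM, both of them leucine zipper factors of myeloid cells. FOS, a subunit of AP-1, differed 32.5-fold, with 82.4 and 80.4 CPM against 2.33 and 2.82 CPM. SPI1, which encodes PU.1, was read in both lines and differed less, 2.75-fold, with 612 and 601 counts in MOLM-13 and 361 and 403 in the deeper HEL libraries.

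**Figure D2:**
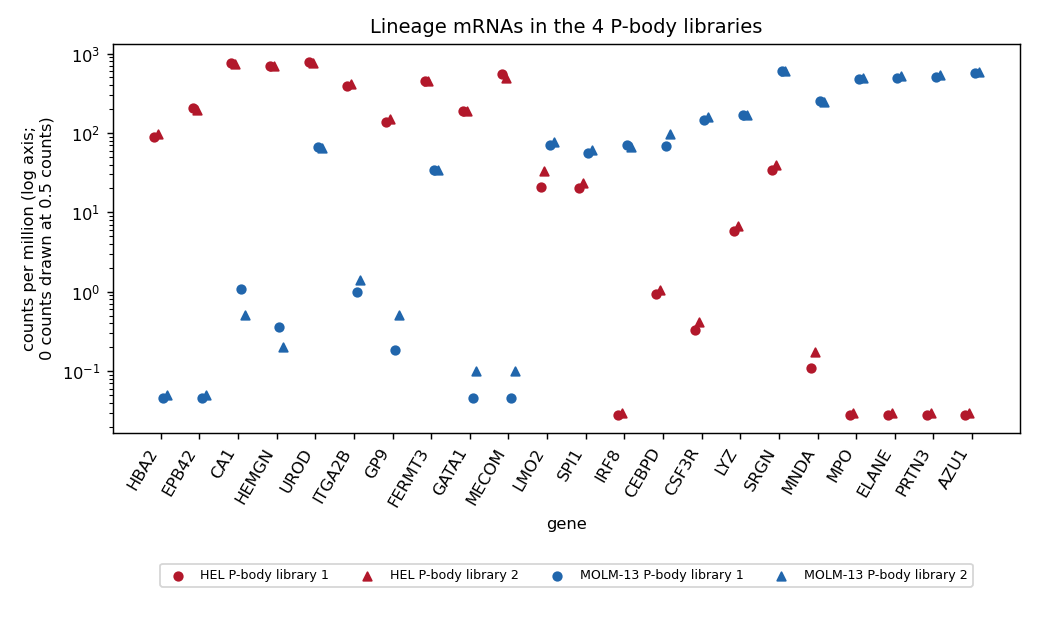
CPM of 22 lineage genes in each of the 4 P-body libraries, on a log axis, with HEL in red, MOLM-13 in blue and circles and triangles for libraries 1 and 2. The libraries of a line lie close together and those of the lines do not overlap for any of the genes shown, with LMO2 and SPI1 the nearest to each other.

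Genes tied to the oncogenes of the lines went both ways. Of 32 tested genes of a list of the HOXA cluster, MEIS1 and targets of KMT2A fusions, 15 were at least 2-fold higher in MOLM-13 and 10 in HEL, with a median log2 difference of 0.57. Of the tested members, 14 had fewer than 10 counts in each library of 1 line. With a filter of 5 CPM, 12 were at least 2-fold higher in MOLM-13 and 3 in HEL, and the median was 1.28. The median was 0.02 without MOLM-13 P-body library 2, 0.94 without HEL P-body library 2 and 0.27 with the GC and length trend removed. HOXA9, a homeobox gene activated by KMT2A fusions, had 425 and 323 counts in MOLM-13 P-bodies and 2 and 1 in those of HEL, a ratio of 420 with a 95% counting interval of 143 to 2040. MEF2C, a transcription factor of the same group, was abundant in both lines, with 1116 and 1111 CPM in MOLM-13 and 537 and 517 CPM in HEL (2.17-fold). JMJD1C, a histone demethylase homologue, had 2152 and 2150 CPM against 448 and 417 CPM (5.11-fold). MEIS1, the partner of HOXA9, was higher in HEL by less than 2-fold, with 62.1 and 56.5 CPM against 45.4 and 41.9 CPM, but with the GC and length trend removed its log2 difference was 0.19 in place of -0.40. Members of the HOXB cluster were among those higher in HEL, such as HOXB9 with 743 and 713 counts in HEL and 1 and 0 in MOLM-13.

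Of 48 tested genes for cytokine receptors, kinases and JAK-STAT signalling, 12 were at least 2-fold higher in MOLM-13 and 21 in HEL, with a median log2 difference of -0.54, or -0.18 with the GC and length trend removed. JAK2, the kinase mutated in HEL, had 478 and 494 CPM in HEL P-bodies and 31.0 and 38.0 CPM in MOLM-13, a 13.7-fold difference (log2 difference -3.78 ± 0.09, adjusted p = 1.62e-11 by edgeR). STAT3, a transcription factor that JAK kinases phosphorylate, had 365 and 351 CPM in HEL and 58.2 and 62.4 CPM in MOLM-13. FLT3, the receptor kinase duplicated in MOLM-13, had 1306 and 1198 counts in MOLM-13 and 1 and 0 in HEL. KIT, the stem cell factor receptor, had 954 and 829 counts in HEL and 11 and 1 in MOLM-13. Each of these mRNAs was read at the higher level in both libraries of 1 line.

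Over all coding genes with at least 20 CPM in the higher line and over 3 counts in every library, the 10 largest differences were SATB1, ITGAL, CSF3R, RASSF4, ZNF397, ALOX5AP, PITPNC1, AHNAK, BCL2A1 and TASL on the MOLM-13 side. SATB1, a chromatin organiser, had 689 and 687 CPM in MOLM-13 and 0.83 and 0.76 CPM in HEL, 877-fold (log2 difference 9.78 ± 0.11, adjusted p = 8.86e-13 by edgeR). ITGAL, the alpha chain of the leukocyte integrin LFA-1, had 1310 and 1155 counts against 6 and 4 counts in HEL. On the HEL side the largest were NFIB, CA1, OSBPL6, ESAM, RHAG, DLC1, RAI14, USP44, NRIP1 and STON2. NFIB, a transcription factor of the nuclear factor I family encoded on chromosome 9 (14081843 to 14398983), had 917 and 921 CPM in HEL and 0.73 and 0.91 CPM in MOLM-13, 1090-fold (log2 difference -10.08 ± 0.11, adjusted p = 8.86e-13 by edgeR). NRIP1, a corepressor of nuclear receptors, was the most abundant of these in HEL, with 1027 and 1053 CPM against 3.55 and 2.13 CPM.

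In HEL, 827 coding genes had at least 10 counts in both P-body libraries and at most 3 in each of MOLM-13, and 184 of them were at 0 in both. In MOLM-13, 479 coding genes stood so against HEL, and 245 of them were at 0 in both HEL libraries. Coding genes with at least 10 counts in both libraries numbered 11632 in HEL and 10812 in MOLM-13. These cuts are in raw counts, and 3 counts stood at 0.166 and 0.176 CPM in HEL and at 0.273 and 0.304 CPM in MOLM-13. The numbers of the 2 lines thus depend on depth and are not to be set against each other. LIN28B, an RNA-binding protein that blocks the maturation of let-7, had 14170 and 13180 counts in HEL and 3 and 1 in MOLM-13, the highest CPM of the HEL genes. FCER1A, the alpha chain of the high-affinity IgE receptor, had 5721 and 5370 counts against 1 and 0 counts. The others of highest CPM in HEL were MECOM, FNBP1L, PPP1R9A, PLCH1, PLOD2, ST8SIA6, SELENBP1 and EPB42. In MOLM-13 they were, after the azurophil granule genes and MNDA, DIAPH2, ASS1, CCL5, PLAC8 and PPP1R27. ASS1, the argininosuccinate synthase, had 2389 and 2224 counts in MOLM-13 and 0 in both HEL libraries. CCL5, a chemokine, had 2257 and 2086 counts and was also at 0 in both HEL libraries.

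Nearly all ribosomal protein mRNAs were higher in MOLM-13 P-bodies. Of 79 tested genes for cytosolic ribosomal proteins, 67 were at least 2-fold higher in MOLM-13 and 0 in HEL, and at any size 78 passed the test toward MOLM-13 and 0 toward HEL, with a median log2 difference of 1.62. With the GC and length trend removed per library, 40 were at least 2-fold higher in MOLM-13 (median 1.03), and at any size 73 passed toward MOLM-13 and 4 toward HEL. Together these mRNAs took 1.86% and 2.14% of counts in the HEL P-body libraries and 5.58% and 5.82% in those of MOLM-13. RPL3, a protein of the large subunit, had 2160 and 2270 CPM in MOLM-13 and 841 and 841 CPM in HEL (2.71-fold). RPL4, also of the large subunit, differed less, 1.34-fold, with 1048 and 1079 CPM against 816 and 815 CPM. Many ribosomal protein genes have processed pseudogenes with which they share reads, and the labels do not state how those were counted. In the cytosolic libraries the same mRNAs took 2.38% and 2.28% of counts in HEL and 11.02% and 10.43% in MOLM-13.

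Translation factor mRNAs had 18 of 42 members at least 2-fold higher in MOLM-13 and 5 in HEL. Of 53 tested genes for replication-dependent histones, 37 were at least 2-fold higher in MOLM-13 and 5 in HEL (median log2 difference 1.66), and 24 were so in MOLM-13 with the GC and length trend removed. Histone genes of a family are near-identical, and most of these mRNAs lack a poly(A) tail, so their counts also depend on how RNA was selected, which the labels do not state. Of 32 long noncoding RNAs on a list of well-known ones, 21 were at least 2-fold higher in MOLM-13 and 1 in HEL (median 1.17). MALAT1, a nuclear RNA, had 2768 and 2768 CPM in MOLM-13 P-bodies and 566 and 631 CPM in HEL. GAS5, a host of small nucleolar RNAs, had 423 and 422 CPM against 189 and 209 CPM. MALAT1 is a nuclear marker, and its level is given beside these counts because it moved with them. Its part in them was not tested.

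Glycolytic enzymes leaned to HEL. Of 19 tested genes, 13 were at least 2-fold higher in HEL and 0 in MOLM-13, with a median log2 difference of -1.49. GAPDH had 1209 and 1097 CPM in HEL and 387 and 408 CPM in MOLM-13, and PKM, the pyruvate kinase of proliferating cells, 623 and 646 CPM against 236 and 236 CPM. ENO1, the enolase, differed 2.11-fold, with 1690 and 1612 CPM against 763 and 760 CPM. LDHA, the lactate dehydrogenase subunit, stayed below 2-fold, with 1361 and 1224 CPM in HEL and 852 and 861 CPM in MOLM-13.

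Of 31 tested genes for cholesterol and fatty acid synthesis, 14 were at least 2-fold higher in HEL and 1 in MOLM-13 (median -0.93). IDI1, an isomerase of cholesterol synthesis, had 717 and 733 CPM in HEL and 248 and 251 CPM in MOLM-13, so that both MOLM-13 libraries lay below both HEL libraries.

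KRAB zinc finger mRNAs, which encode DNA-binding repressors, many of them of retroelements, were mostly higher in HEL. Of 107 tested members encoded at 19p12 and 19q13 (128 on the list), 71 were at least 2-fold higher in HEL and 10 in MOLM-13, with a median log2 difference of -1.52. Of the tested members, 29 had fewer than 10 counts in each library of 1 line. With the GC and length trend removed, 20 were at least 2-fold higher in MOLM-13 (median -1.03). They took 0.711% and 0.672% of counts in HEL P-bodies and 0.337% and 0.328% in those of MOLM-13. ZNF721 had 513 and 469 CPM in HEL and 21.5 and 18.9 CPM in MOLM-13. ZNF714 was among the exceptions, with 187 and 168 CPM in MOLM-13 and 2.77 and 2.58 CPM in HEL. Of 73 ubiquitin ligases and adaptors, 31 were at least 2-fold higher in HEL and 4 in MOLM-13 (median -0.85), and with that trend removed these counts were 19 and 8.

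The mRNAs for P-body and mRNA decay proteins themselves were divided. Of 65 tested, 13 were at least 2-fold higher in MOLM-13 and 23 in HEL, with a median log2 difference of -0.19. With the GC and length trend removed the median was 0.10, and 20 members were at least 2-fold higher in MOLM-13. DCP1A, a cofactor of decapping, had 577 and 553 CPM in HEL against 140 and 147 CPM in MOLM-13 (3.82-fold, log2 difference -1.93 ± 0.06, adjusted p = 2.08e-10 by edgeR), and DCP2, the decapping enzyme, 630 and 639 CPM against 290 and 297 CPM. DDX6, the helicase needed for P-bodies, had 152 and 142 CPM in HEL and 55.1 and 50.5 CPM in MOLM-13 (2.71-fold). On the MOLM-13 side were TNRC6B, a GW182 scaffold of miRNA silencing, with 601 and 618 CPM against 281 and 277 CPM, and YBX1, a cold-shock mRNA-binding protein, with 450 and 448 CPM against 174 and 189 CPM. These are levels of mRNA in the P-body libraries, and the proteins were not measured.

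**Figure D3:**
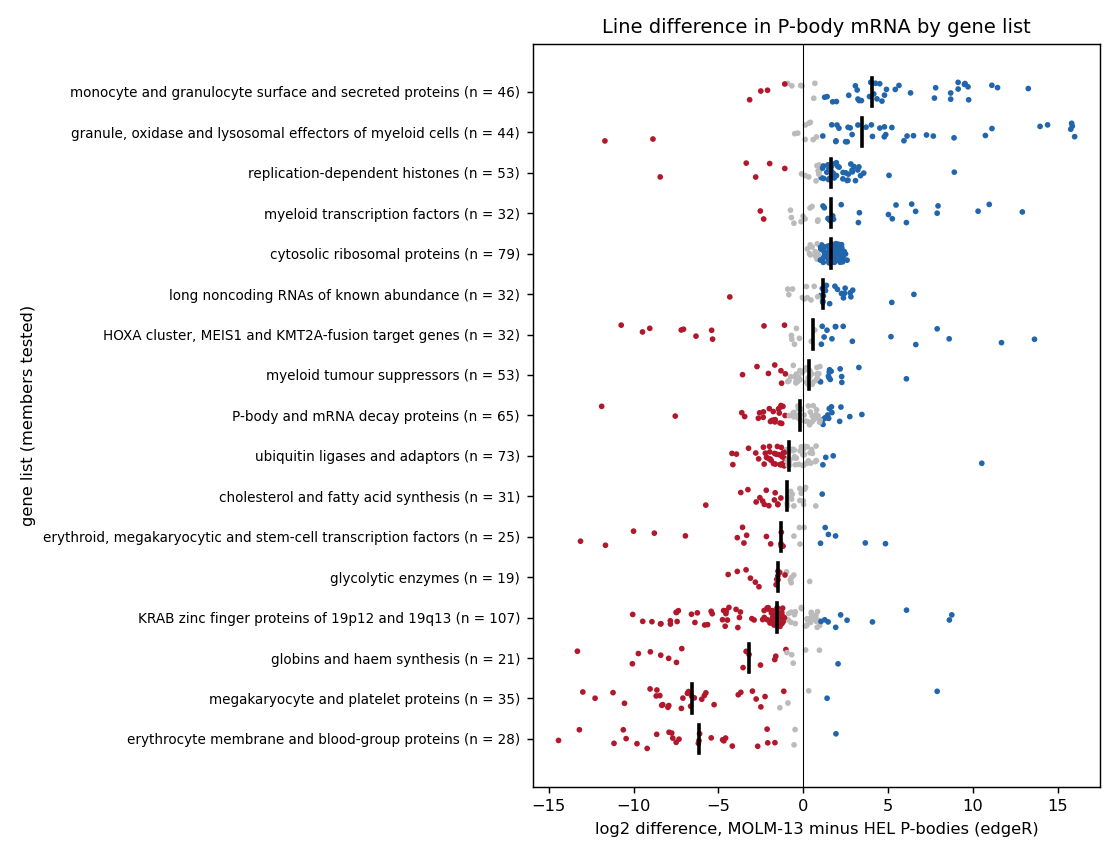
Log2 difference in P-bodies, MOLM-13 minus HEL, of each tested member (points) of 17 gene lists, with the list median as a black bar. Blue and red points are at least 2-fold higher in MOLM-13 and in HEL at an adjusted p below 0.05, and fitted values beyond about 10 in size belong to genes at or near 0 in a line.

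The remaining lists are given by their counts. Myeloid tumour suppressor genes had 12 of 53 members at least 2-fold higher in MOLM-13 and 7 in HEL, and Toll-like receptor and inflammasome genes 13 and 5 of 31. Integrin and adhesion genes had 11 and 20 of 36, and class I presentation and interferon-induced genes 10 and 23 of 46. Iron handling genes had 4 and 10 of 21: NCOA4, the receptor that brings ferritin to autophagy, had 571 and 518 CPM in HEL and 135 and 133 CPM in MOLM-13, opposite to FTL. Genes of the BCL2 family and the p53 pathway had 14 and 10 of 33, centrosome and spindle genes 17 and 11 of 58, and heat shock and chaperonin genes 4 and 4 of 26. Class II presentation genes had 4 and 7 of 14, cancer-testis antigens 5 and 5 of 11 (39 listed), lymphoid markers 3 and 4 of 8 (34 listed), fibroblast and epithelial markers 1 and 1 of 3 (18 listed), and mitochondrially encoded mRNAs 4 and 0 of 13. Some tested members had fewer than 10 counts in each library of 1 line, so that the filter favoured a difference. These were 10 of the cancer-testis antigens, 7 of the lymphoid markers, 7 of the class II genes, 13 of the integrin and adhesion genes and 8 of the class I and interferon-induced genes.

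Position and sequence composition went along with the differences. The 4058 coding genes at least 2-fold higher in HEL P-bodies had a median transcript GC content of 46.8% and a median length of 3443 bases, the 3113 higher in MOLM-13 had 52.2% and 2751 bases, and the other 5350 had 48.6% and 2922 bases. Across 12521 coding genes the log2 difference correlated with GC content at a Spearman rho of 0.16 and with length at -0.12, and in the cytosolic libraries, over 12500 genes, at 0.17 and -0.13. With the GC and length trend removed per library, 6488 genes were higher in MOLM-13 and 6534 in HEL.

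By chromosome (GRCh38, GENCODE 29 gene positions), the median log2 difference over coding genes read in both lines ran among nuclear chromosomes from -1.17 on chromosome 21 (89 genes) to 0.32 on chromosome 8 (329 genes), around -0.28 over all 8589 genes, which include 12 mitochondrial genes with a median of 0.86. In windows of 10 Mb with at least 10 such genes, the lowest medians were -2.91 on chromosome 7 from 80000001 to 90000000 (12 genes) and -2.79 on chromosome 9 from 10000001 to 20000000 (13 genes, 11 of them at least 2-fold higher in HEL). The cytosolic medians there were -2.56 and -2.88. The highest was 1.02 in the first 10 Mb of chromosome 19 (134 genes, 69 of them at least 2-fold higher in MOLM-13). Over all 8589 genes the quartiles of the log2 difference were -1.30 and 0.74, and the window counts are to be read beside these.

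On the short arm of chromosome 9, where JAK2 lies (chr9:4984390-5128183, plus strand), some genes ran opposite to it. Most of those read in both lines did not in the first 10 Mb. There 14 of 20 coding genes read in both lines were at least 2-fold higher in HEL and 2 in MOLM-13. Their median log2 difference was -1.70, against -0.28 over all 8589 such genes (quartiles -1.30 and 0.74). MTAP (chr9:21802543-21937651), which salvages methylthioadenosine, had 502 and 390 counts in MOLM-13 P-bodies and 0 in both HEL libraries, at least 249-fold higher in MOLM-13. DOCK8 (chr9:214854-465259), an exchange factor of leukocytes, had 2092 and 1889 counts in MOLM-13 and 0 in both HEL libraries, at least 1120-fold higher. DOCK8 lies in the first 10 Mb but, at 0 in HEL, is not among the 20 genes read in both lines. MTAP and DOCK8 were singled out after their values were seen.

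The line difference in P-bodies followed that in cytosol. Across 15780 genes tested in both, the log2 differences correlated with a Pearson r of 0.95 and a Spearman rho of 0.96, a description across genes of comparisons that share no library. The difference between the differences was tested in a fit of all 8 libraries, in which 3875 of 17477 genes (22.2%) passed, 1600 with a line difference shifted toward MOLM-13 in P-bodies and 2275 toward HEL. With library totals in place of TMM factors this split was 1955 and 1830. Below, the P-body difference is that of the 4 P-body libraries, and the cytosolic difference and the shift come from the fit of all 8. Ribosomal protein mRNAs were shifted together: 77 of 79 passed toward HEL, with a median line difference of 2.43 in cytosol and 1.62 in P-bodies, so that the excess in MOLM-13 was smaller in its P-bodies.

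Coding genes at least 2-fold higher in MOLM-13 P-bodies were kept with at least 20 CPM in both libraries there. Of these, 196 also passed the test of the difference from cytosol in the same direction. Of the 196, 191 had over 3 counts in all 8 libraries. For HEL these numbers were 428 and 388. How many genes met the first conditions is not given, so these are no shares to set against the 22.2% over all genes. They were taken with TMM factors only. With library totals the split over all genes leaned the other way, so the lines are not to be set against each other. The requirement of over 3 counts was set after the values were seen, since a fitted difference against a line at 0 cannot be interpreted.

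CENPE, a kinesin of the kinetochore, had 783 and 737 CPM in MOLM-13 P-bodies and 88.3 and 93.6 CPM in HEL, a log2 difference of 3.10 against 0.79 in cytosol, which makes a shift of 2.26 (adjusted p = 7.99e-13 by edgeR). IGF2R, the mannose 6-phosphate receptor, had 122 and 119 CPM against 11.7 and 13.8 CPM, and its difference of 3.28 in P-bodies stood against 1.16 in cytosol. TPR, a nucleoporin of the nuclear basket, had 1284 and 1257 CPM against 364 and 345 CPM, with a difference of 1.88 in P-bodies and -0.02 in cytosol. JUN, an AP-1 subunit, followed with 3.85 against 1.96.

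On the HEL side, RGS17, a regulator of G-protein signalling, had 57.5 and 61.4 CPM in HEL P-bodies and 0.91 and 0.61 CPM in MOLM-13, a log2 difference of -6.22 against -2.36 in cytosol (shift -3.91, adjusted p = 8.08e-06 by edgeR). MAGI1, a scaffold of cell junctions, had 281 and 263 CPM against 0.45 and 1.22 CPM, a log2 difference of -8.33 in P-bodies and -5.58 in cytosol.

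A few mRNAs were higher in one line in P-bodies and in the other in cytosol. Of 12521 coding genes tested in P-bodies, 206 passed both line tests in opposite directions and also the test of the difference between the fractions. Of these, 12 had at least 10 CPM in all 4 P-body libraries and a log2 difference over 0.5 in size in both fractions. Among the 12 were ENC1, LMNB1, LYL1, NAPEPLD, QSER1, RANBP2, REL, RSBN1, SMN1, SOS2 and SPG11. ENC1, an actin-binding adaptor, had 45.2 and 34.7 CPM in HEL P-bodies and 19.5 and 17.5 CPM in MOLM-13, a log2 difference of -1.07 against 1.05 in cytosol. LMNB1, which encodes lamin B, had 46.2 and 48.5 CPM in HEL P-bodies and 70.3 and 74.1 CPM in MOLM-13, a log2 difference of 0.65 against -1.25 in cytosol. SMN1 has a near-identical copy, and its counts are uncertain. The P-body difference of LYL1 did not pass without MOLM-13 P-body library 1 (adjusted p = 0.095 by edgeR) or with a filter of 5 CPM (0.056), that of SMN1 did not with DESeq2 (adjusted p = 0.13), and that of NAPEPLD was 0.04 with the GC and length trend removed.

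**Figure D4:**
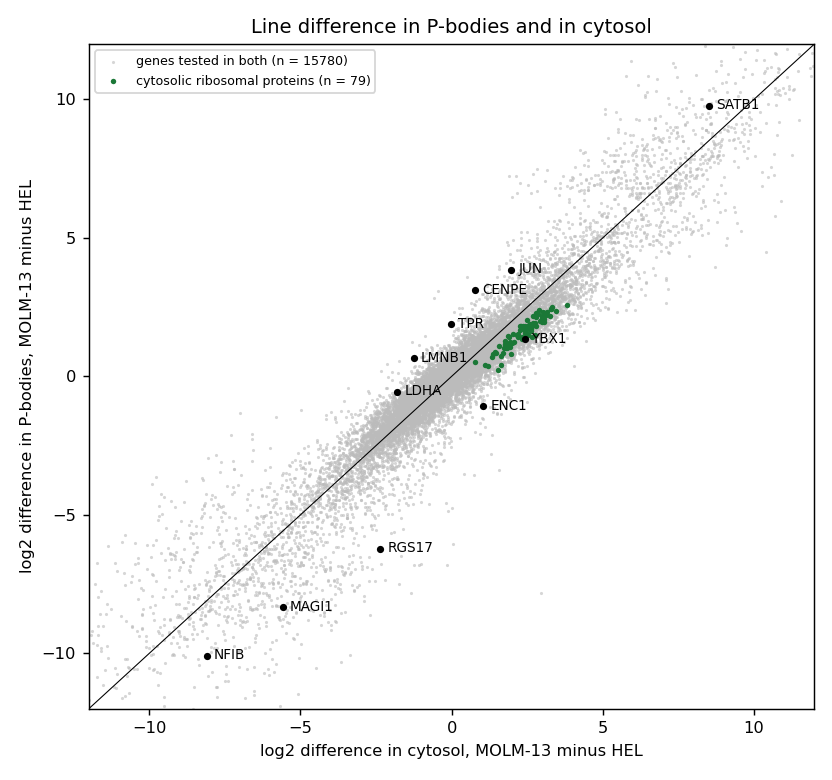
Log2 difference MOLM-13 minus HEL of each gene in cytosol (x) and in P-bodies (y), with the diagonal as the line of equal differences and ribosomal protein genes in green. Ribosomal protein genes lie below the diagonal at medians of 2.43 and 1.62, and CENPE, TPR, LMNB1, ENC1, RGS17 and MAGI1 lie away from it.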

How the data were processed

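RNA was sequenced from P-bodies and cytosol of HEL and MOLM-13 cells, and the values are whole-number read counts per gene that the authors deposited in 1 table per line. Per the submitters' processing notes, GRCh38, the aligner STAR, SAMtools 1.12 and DESeq2 were used; the read counter, its annotation and its strand setting were not given in the labels, so reads of overlapping antisense genes cannot be told apart. Of 61544 rows per table, 1348 rows of 112 repeated symbols were left out, which hold 0.0250% to 0.0382% of the P-body counts. Of the joined symbols, 56978 were matched to GENCODE 29.

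Genes were tested with edgeR 4.0.16 (R 4.3.3, TMM factors 0.987 to 1.02, filterByExpr with a smallest count of 10, quasi-likelihood test, Benjamini-Hochberg adjustment over all genes tested), 2 against 2 libraries. The test was also run on simulated counts in which few genes differed and all libraries had the same spread. Most genes differed in the real data, so the simulation cannot speak to errors there. Called means an adjusted p below 0.05. The difference from cytosol was tested as an interaction over all 8 libraries. Genes at 0 in a line are given as a bound at 3 counts per library, and those with up to 3 counts as a count ratio with a 95% exact interval, which covers counting error only. Figures were drawn with matplotlib 3.10.9.

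Named genes were the highest 15 per length, the 10 largest differences, the 10 highest genes of 1 line alone and the 6 largest differences beyond cytosol in each direction, the genes of smallest difference at 100 CPM or more, and list members by CPM, from which the text takes a part. Genes on the Y chromosome and XIST were not named, and a few genes that these rules pick are not reported here. The members, gene lists and tests were chosen with earlier results of these data known. Alternatives were other size factors (RLE, library totals), DESeq2 1.42.0, other filters, all 8 libraries, a replicate block, leaving out each library, removal of a GC and length trend (splines with 5 degrees of freedom) and, added after seeing the data, summing rows of repeated symbols.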

Additional observations from a re-analysis of the deposited data

Results flagged for a closer look

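The line difference (log2, MOLM-13 minus HEL) was not the same in P-bodies as in cytosol for these named genes, by the interaction test of edgeR over all 8 libraries, with a shift of at least 1 in size and over 3 counts in every library. The genes were picked among those named, many of which were chosen for this shift, so their number is no result. Toward MOLM-13 in P-bodies the shift was 2.26 for CENPE, 2.07 for IGF2R, 1.85 for TPR, 1.84 for LMNB1, 1.84 for JUN, 1.34 for SMN1, 1.24 for RANBP2, 1.20 for SOS2, 1.20 for SATB1, 1.19 for LDHA, 1.06 for CA2, and 1.05 for SPG11. Toward HEL it was -3.91 for RGS17, -2.80 for MAGI1, -2.17 for ENC1, -2.03 for NFIB, -1.95 for RAI14, -1.78 for RSBN1, -1.67 for DLC1, -1.63 for QSER1, -1.62 for USP44, -1.42 for NAPEPLD, -1.33 for LYL1, -1.26 for REL, -1.20 for TMSB10 and -1.14 for YBX1. LDHA was lower in MOLM-13 in both fractions and less so in P-bodies. The cause of these shifts was not tested.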

How the results depend on the processing

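The counts of genes higher in MOLM-13 (6549) and in HEL (6699) ranged over the alternatives from 4816 to 7631 and from 4972 to 7873, each within 1.5 times. With a filter of 5 CPM, which tests fewer genes, at least 2-fold differences numbered 3070 in MOLM-13 and 3148 in HEL. Leaving out 1 library gave 5744 to 6839 and 6382 to 6713. With the replicate block the counts were 6502 and 6657, and 1623 and 2296 for the difference from cytosol. Between the lines the replicate numbers showed no pairing: deviations of the HEL and the MOLM-13 P-body libraries correlated at 0.02 over genes. Whether P-body and cytosolic libraries of the same number in a line are paired was not checked. The test of the difference from cytosol took them as unpaired.

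Filters moved log2 differences together, by a median over genes of -0.17 with no filter and 0.17 with 5 CPM. GC and length removal moved them by a median of 0.12 but not by a common amount: it raised IQGAP2 and lowered H4C3. Among the genes and list medians of the text, the following changed direction, each given with its new log2 value. With GC and length removal these were H4C3 at -0.22, IQGAP2 at 0.51, NIP7 at 0.34, MEIS1 at 0.19, NAPEPLD at 0.04, and the medians of P-body proteins at 0.10, heat shock proteins at 0.093 and centrosome proteins at 0.15. With 5 CPM they were IQGAP2 at 0.16, NIP7 at 0.16, heat shock proteins at 0.063 and centrosome proteins at 0.041. With RLE they were IQGAP2 at 0.02 and NIP7 at 0.019. LSM14A was -0.04 with DESeq2, -0.11 with no filter and -0.003 with all 8 libraries, and CTSS -0.035 with no filter. LSM14A, CTSS, IQGAP2 and NIP7 gained a call with 5 CPM and with GC and length removal, and NIP7 also did with no filter. With a library left out, IQGAP2 ranged from -0.095 to 0.082 and NIP7 from -0.064 to 0.046. LYL1 lost its call without MOLM-13 P-body library 1 (edgeR adjusted p = 0.095) and with 5 CPM, SMN1 with DESeq2, and NOP58 under 4 settings, 2 of them without a MOLM-13 library. Of 1946 refitted gene values, 1915 kept direction and call. Libraries of HEL are the deeper, so genes at 0 in MOLM-13 are bounded less tightly. The cause of each change was not tested.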
